A study of Homo sapiens with 12 samples.

Results

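The comparison described here set ribosome-bound RNA against total RNA within neural progenitor cells (NPC) made from the human embryonic stem cell line HUES8. It used the 3 libraries of ribosome-bound RNA from NPC (RIBO_NPC) and the 3 libraries of total RNA depleted of ribosomal RNA from NPC (RNA_NPC), 6 of the 12 libraries of the series. The other 6 hold the same assays in the parent embryonic stem cells (ESC), and entered only the comparison of ratios between the cell states. All cells were wild type (WT) for genotype and came from this single line. ESC were kept in mTeSR1 medium on Matrigel. NPC were made over 7 days in neural induction medium by dual SMAD inhibition, with 2.5 uM SB431542, which blocks the activin and Nodal receptors, and 0.05 uM LDN193189, which blocks BMP receptors; SB431542 was left out for the last 2 days. The labels name the second assay only as ribosome-bound RNA. The method of ribosome isolation and any nuclease treatment are not described there. Nothing says whether libraries of an assay came from separate cultures, or whether both assays used the same cells, so p-values measure the spread between these libraries, which may be technical.

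An mRNA is translated when ribosomal subunits assemble on it after initiation at the cap, and several ribosomes usually follow each other along a reading frame. The share of an mRNA found on ribosomes is set by features such as the start of the 5′ leader, upstream reading frames and binding proteins. mRNAs of ribosomal proteins and elongation factors begin with a terminal oligopyrimidine (TOP) tract, a C followed by pyrimidines, through which the growth-regulating kinase mTOR controls their translation. Long noncoding RNAs (lncRNAs) kept in the nucleus have little contact with ribosomes, whereas some cytoplasmic ones are bound without making a stable protein.

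The RNA libraries held 26076504, 35117370 and 32682285 counts, and the ribosome-bound libraries 3274208, 3512031 and 4451196. Across genes, replicates of total RNA correlated at Pearson r = 0.997 to 0.998 (log2 CPM), those of ribosome-bound RNA at 0.981 to 0.984, and libraries of different assays at 0.773 to 0.794. CPM here means counts per 1000000 of the library size after TMM scaling, a correction for differences in composition. A count of 0 allows a level of up to 3 counts, equal to 0.0755 to 0.101 CPM in an RNA library and 0.766 to 1.08 CPM in a ribosome-bound library. All 10 neural progenitor markers (PAX6, SOX1, SOX2, SOX3, OTX2, LHX2, SIX3, NES, ZIC1 and HES5) stood at 1 CPM or more in every RNA library, and their summed level was 1253 to 1307 CPM in total RNA and 1101 to 1410 CPM on ribosomes. Of 16 pluripotency genes 11 reached that level, with a sum of 5052 to 5159 CPM, most of it LIN28A, and 1084 to 1194 CPM on ribosomes. Of 16 genes of neurons 11 did so too, with a sum of 368 to 399.4 CPM in total RNA and 839 to 857 CPM on ribosomes. Of 10 mesenchyme genes 6 did, with a sum of 942 to 990 CPM in total RNA and 813 to 889 CPM on ribosomes. Of 6 neural crest genes 5 did, with sums of 107 to 109 and 151 to 187 CPM, and of 12 mesoderm and endoderm genes 1 did, with sums of 4.90 to 5.71 and 29.8 to 36.5 CPM. In such bulk samples fewer cells of a type and less RNA per cell cannot be told apart.

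Ribosome-bound RNA differed from total RNA first in its kinds of RNA. Protein-coding genes took 94.8% ± 0.0931 (SD, n = 3) of the counts in total RNA and 82.8% ± 1.62 (SD, n = 3) on ribosomes. Pseudogenes took 0.439% ± 0.000866 (SD, n = 3) of total RNA and 4.68% ± 0.217 (SD, n = 3) of ribosome-bound RNA. Much of this rise lay in pseudogene rows of small structural RNAs. The U1 row RNU1-67P took 2.06% of ribosome-bound counts, and the 5S rows RNA5SP215 and RNA5SP136 took 0.458% and 0.345%. MicroRNA genes went from 0.0114% ± 0.000357 to 1.44% ± 0.338, snoRNA genes from 0.0252% ± 0.000607 to 1.39% ± 0.255, Y RNA from 0.000125% ± 3.02e-05 to 2.08% ± 0.467, and rows of the mitochondrial genome from 0.758% ± 0.109 to 2.71% ± 0.702 (each SD, n = 3). The mitochondrial rise lay in MT-RNR2, the large mitochondrial ribosomal RNA, at 1.85, 1.81 and 21.5 CPM in total RNA and 29947, 17502 and 19195 CPM on ribosomes. Total RNA was depleted of ribosomal RNA. Without this row the mitochondrial share was 0.757% ± 0.109 and 0.772% ± 0.186 (SD, n = 3). In all of the classes named, with MT-RNR2 included, every ribosome-bound library lay on the same side of every RNA library. An exact two-sided permutation test over the libraries gave p = 0.1 for each, the smallest value that 3 against 3 libraries allow. The lncRNA share was 1.73% ± 0.0557 in total RNA and 1.88% ± 0.202 on ribosomes (SD, n = 3), with overlapping libraries and an exact permutation p of 0.3.

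Of 59050 rows in the table, 16777 passed the filter on low counts and were tested with edgeR's quasi-likelihood test, with Benjamini-Hochberg adjustment over all of them. At an adjusted p under 0.05, 5752 genes (34.3%) were higher on ribosomes and 6965 (41.5%) were lower. Genes whose difference was also at least 2-fold are called ribosome-rich (3464 genes, 20.6%) or ribosome-poor (4777 genes, 28.5%) below. Every ratio is relative, since each library was scaled to its own size. With scaling by library totals alone all log2 ratios shifted by -0.37, and the calls became 4336 higher and 8753 lower, so that the share of higher calls among all calls went from 45.2% to 33.1%. The kinds of RNA behaved differently. Of 13449 protein-coding genes tested, 2685 were ribosome-rich and 2988 (22.2%) ribosome-poor, with a median log2 ratio of -0.03. Of 722 lncRNAs, 10.4% were ribosome-rich and 56.1% ribosome-poor, with a median of -1.40 (-1.37 with genes at 0 counts set at their bound). Zinc finger genes with a ZNF symbol, DNA-binding regulators of which 441 were tested, had 7.71% ribosome-rich and 39.5% ribosome-poor members and a median of -0.65. The RNA libraries were deeper, so rows at low levels could pass the filter through total RNA alone. With total RNA thinned to the ribosome-bound depth, 2884 genes were ribosome-rich and 3228 ribosome-poor. Shares by kind of RNA were not taken at that depth. Among the 8103 protein-coding genes with at least 10 CPM in each assay, the central 90% of log2 ratios ran from -1.79 to 1.97, a 13.53-fold span.

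**Figure D1:**
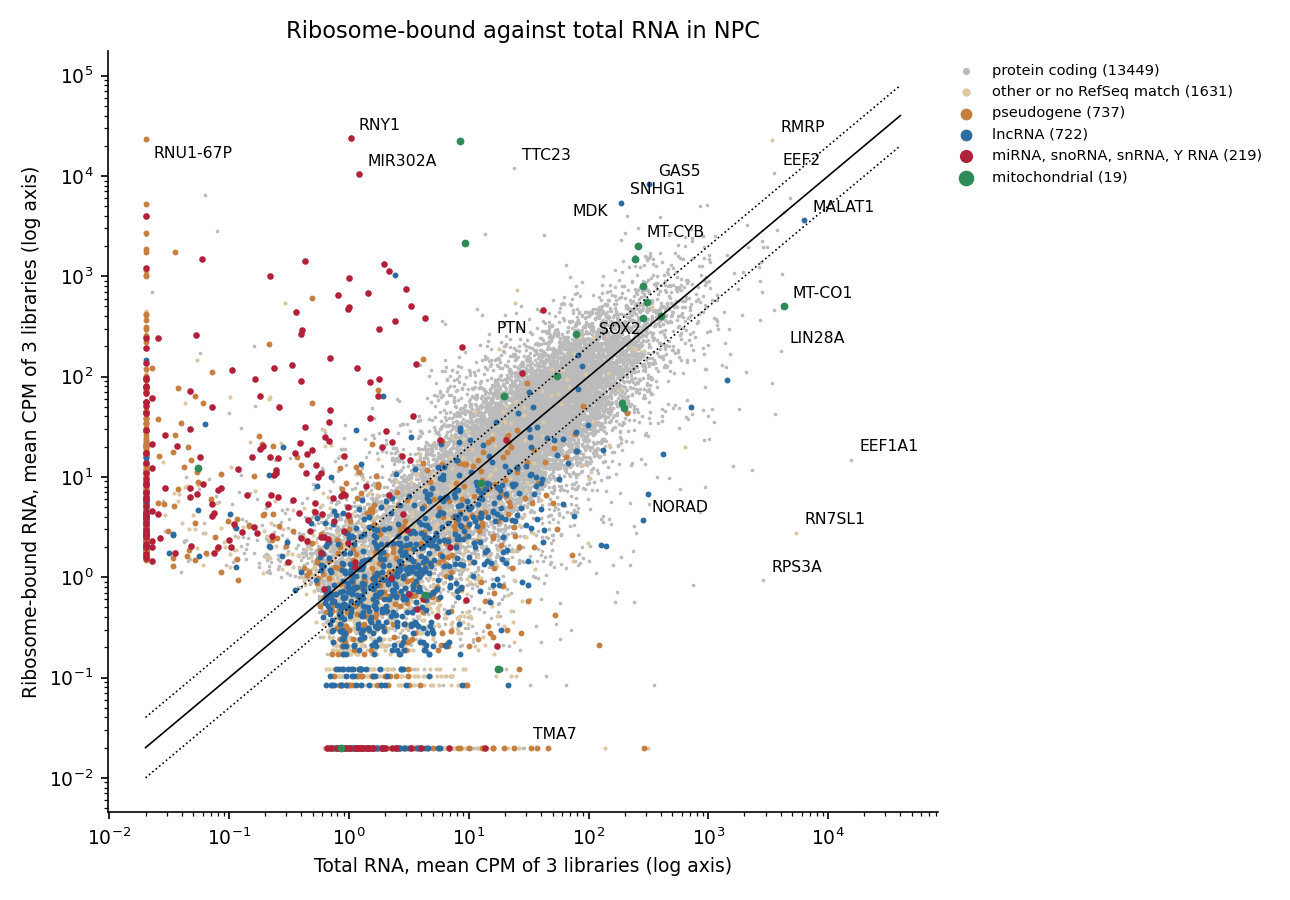
Mean CPM of the 3 total RNA libraries (x, log axis) against that of the 3 ribosome-bound libraries (y, log axis) for the 16777 genes tested in NPC, coloured by RefSeq gene class with the number of genes in brackets; the solid line marks equality, the dotted lines 2-fold, and genes at 0 are drawn at 0.02. Most protein-coding genes lie along the line, lncRNAs (blue) mostly below it, and many microRNA, snoRNA and pseudogene rows at the upper left.

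Transcription factors of neural progenitors and the forebrain leaned towards ribosomes. Of 38 listed, 36 were tested, 21 were higher on ribosomes and 5 lower, and 14 were ribosome-rich and 2 ribosome-poor. The median log2 ratio was 0.60, against -0.16 over all genes tested and -0.03 over protein-coding genes. RAX, counted among the ribosome-rich, had a mean of only 0.362 CPM in total RNA and passed the filter through ribosome-bound RNA. Shares in this and later lists are to be read against all genes tested, 34.3% higher, 41.5% lower, 20.6% ribosome-rich and 28.5% ribosome-poor. SOX2, which maintains the progenitor state, stood at 99.2, 110.2 and 102 CPM in the RNA libraries and 227, 218 and 211 CPM in the ribosome-bound libraries. The groups did not overlap (log2 ratio 1.07 ± 0.0864 SE, adjusted p = 2.3e-10). SOX11, a related factor that acts as progenitors become neurons, went from 377, 392 and 409.9 to 1713, 1588 and 1804 CPM (log2 ratio 2.11 ± 0.0966 SE, adjusted p = 1.25e-14). LHX5, a forebrain homeobox factor, went from 99.6, 99.8 and 85.3 to 373, 374 and 441 CPM (log2 ratio 2.06 ± 0.0979 SE, adjusted p = 2.4e-14). SOX3, another member of the SOX2 group, measured 31.9, 34.2 and 31.9 CPM in total RNA and 91.3, 142 and 150.5 CPM on ribosomes, where the first library was the lowest but still above every RNA value (log2 ratio 1.98 ± 0.126 SE, adjusted p = 3.74e-12). DACH1, a nuclear cofactor of the eye field, had a log2 ratio of 1.82. LHX2, a regulator of eye field and cortex, was ribosome-rich by 7.46-fold, though from a mean of only 1.17 CPM in total RNA.

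Other factors of the same cells were on the opposite side. SOX1, which like SOX2 belongs to the SoxB1 group and marks neuroectoderm, fell from 44.3, 42.4 and 40.001 CPM in total RNA to 9.75, 9.098 and 10.5 CPM on ribosomes (log2 ratio -2.10 ± 0.143 SE, adjusted p = 1.15e-11). FEZF1, a forebrain zinc finger factor, fell from 111, 110.3 and 100.4 to 36.1, 41.4 and 40.1 CPM (log2 ratio -1.45 ± 0.102 SE, adjusted p = 2.44e-11). All 3 ribosome-bound values of both genes lay below all RNA values. ZIC1, a zinc finger factor of the dorsal neural tube, had a log2 ratio of -0.77. PAX6, the regulator that marks neuroectoderm in human cells, stood at 37.4, 37.6 and 39.5 CPM in total RNA and 28.2, 27.6 and 34.995 CPM on ribosomes, a small difference (log2 ratio -0.32 ± 0.116 SE, adjusted p = 0.01603) that lost its call without RIBO_NPC replicate 2 (adjusted p = 0.0509), in limma-voom (adjusted p = 0.0785) and in the fit over all 12 libraries (adjusted p = 0.148). OTX2, which specifies forebrain and midbrain, stood at 83.2, 78.3 and 83.2 and 90.2, 98.5 and 112 CPM and was slightly higher on ribosomes (log2 ratio 0.30 ± 0.0938 SE, adjusted p = 0.00607), a call lost without RNA_NPC replicate 2 (adjusted p = 0.0526) or RIBO_NPC replicate 3 (adjusted p = 0.117). The call was also lost without a filter (adjusted p = 0.201), with a minimum of 10 CPM (adjusted p = 0.118) and in the fit over all 12 libraries (adjusted p = 0.155), and the direction reversed to -0.07 with scaling by library totals alone. SIX3, SOX4 and HES1 did not pass the test, with log2 ratios of -0.15, 0.03 and 0.16, though SIX3 and SOX4 were called lower with library totals alone (-0.52 and -0.34), and SIX3 also without a filter (-0.30) and with a minimum of 10 CPM (-0.30). The factors of the SOX2 group spanned log2 ratios from -2.10 (SOX1) to 1.98 (SOX3) in the same libraries.

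**Figure D2:**
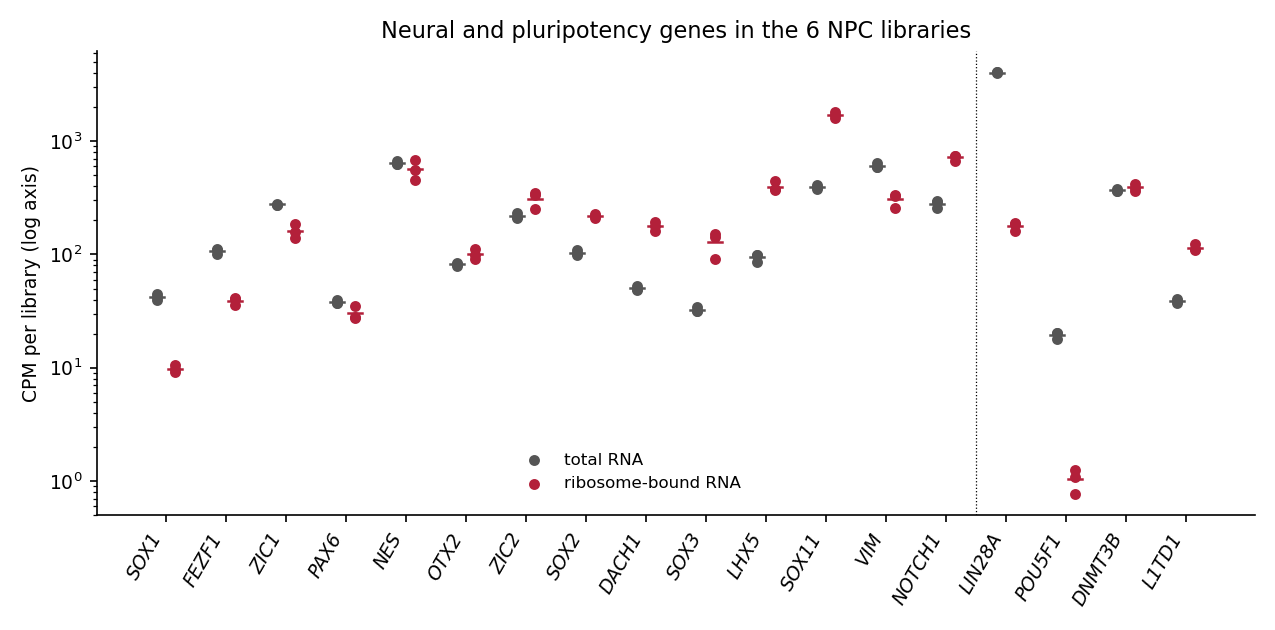
CPM in each of the 3 total RNA (grey) and 3 ribosome-bound (red) libraries of NPC on a log axis, with a short line at each mean, for neural genes (left of the dotted line) and pluripotency genes (right of it). SOX1, FEZF1, LIN28A and POU5F1 lie lower on ribosomes in every library, and SOX2, SOX3, LHX5 and SOX11 higher in every library.

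Structural and signalling genes of neural progenitors also had more members higher than lower. Of 25 tested, 15 were higher on ribosomes and 3 lower, 7 were ribosome-rich and 1 ribosome-poor, with a median of 0.43. NES, the intermediate filament nestin, stood at 665, 623 and 627 CPM in total RNA and 449.8, 685 and 560.2 CPM on ribosomes, and the ranges overlapped (log2 ratio -0.18 ± 0.115 SE, adjusted p = 0.173). NES was called lower without RIBO_NPC replicate 2, the highest of its group (-0.37, adjusted p = 0.00140), with library totals alone (-0.54), without a filter (-0.32) and with a minimum of 10 CPM (-0.32). VIM, the intermediate filament vimentin, was lower on ribosomes, at 259, 327 and 334 against 641, 594 and 589 CPM (log2 ratio -0.98 ± 0.102 SE, adjusted p = 1.39e-08). MSI2, an RNA-binding protein of progenitors, had a log2 ratio of -1.16. The Notch receptors, which hold progenitors undifferentiated, did not share a direction. NOTCH1 was higher on ribosomes, with a log2 ratio of 1.35, and NOTCH2 lower, with -0.90. The Notch ligand DLL1 had 1.31. PARD3, a polarity protein of the apical surface, went from 68.8, 69.005 and 74.3 to 208, 196 and 203 CPM (log2 ratio 1.51 ± 0.0857 SE, adjusted p = 5.09e-13).

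Among genes typical of neurons more members were higher on ribosomes. Of 13 tested, 9 were higher, 6 of them ribosome-rich, and 4 did not pass the test, with a median of 0.93. TUBB3, the neuronal beta-tubulin, stood at 1.72, 1.51 and 1.51 CPM in total RNA and 23.1, 28.2 and 26.8 CPM on ribosomes (log2 ratio 4.05 ± 0.1797 SE, adjusted p = 7.58e-15). NEFM, a neurofilament subunit, went from 7.52, 7.099 and 8.19 to 54.5, 42.98 and 54.9 CPM (log2 ratio 2.74 ± 0.128 SE, adjusted p = 1.85e-14), and GAP43, a growth cone protein, had a log2 ratio of 2.67. DCX, NEUROG2 and RBFOX3, which mark early to mature neurons, were among the others, at -0.48, 0.09 and 0.28, and DCX was called lower with library totals alone (-0.85, adjusted p = 0.0400).

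Pluripotency genes were more often lower than higher on ribosomes, as was so among all genes tested (41.5% lower and 34.3% higher). Of 13 tested, 3 were higher on ribosomes and 7 lower, with 3 ribosome-rich and 5 ribosome-poor, and a median of -0.39; the 7 members without a named pseudogene copy had a median of 0.09. UTF1 and GDF3, among the higher members, had means of only 0.505 and 0.138 CPM in total RNA and passed the filter through ribosome-bound RNA. LIN28A, an RNA-binding protein that blocks maturation of let-7 microRNAs, stood at 4086, 4041 and 3971 CPM in total RNA and 191, 162 and 187 CPM on ribosomes (log2 ratio -4.49 ± 0.114 SE, adjusted p = 5.48e-19), 22.4-fold lower on 1776 ribosome-bound counts. POU5F1, which has 6 named pseudogene copies in the table, stood at 20.4, 20.1 and 17.9 and 1.08, 1.25 and 0.766 CPM (log2 ratio -4.25 ± 0.284 SE, adjusted p = 8.81e-12). DNMT3B, the de novo DNA methyltransferase, stood at 362, 376 and 363 and 362, 388 and 423 CPM with no called difference (log2 ratio 0.09 ± 0.0898 SE, adjusted p = 0.353), although scaling by library totals alone called it lower (-0.28). L1TD1, an RNA-binding protein of pluripotent cells, was higher on ribosomes, with a log2 ratio of 1.55.

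Secreted proteins leaned strongly to ribosomes. Of 42 matrix and signalling genes, all tested, 33 were higher on ribosomes and 3 lower, with 18 ribosome-rich and 1 ribosome-poor and a median of 0.89. None of them has a named pseudogene copy. MDK (midkine), a heparin-binding growth factor of neural progenitors, stood at 214, 214 and 199.4 CPM in total RNA and 4531, 3277 and 4293 CPM on ribosomes (log2 ratio 4.27 ± 0.128 SE, adjusted p = 8.3e-18). Its relative PTN (pleiotrophin) went from 13.6, 13.4 and 16.1 to 233, 221 and 217 CPM (log2 ratio 3.96 ± 0.1003 SE, adjusted p = 5.32e-19). Both rose in every library, by 19.3-fold and 15.5-fold. SFRP2, a Wnt antagonist, had a log2 ratio of 2.96, APOE, the lipid carrier, 2.41, and LAMB1, a laminin chain, 1.96. Other matrix genes did not pass the test, among them LAMA1 (0.05), HSPG2 (0.06), FBN1 (0.11) and FBN2 (0.07). With scaling by library totals alone these 4 were called lower, at -0.32, -0.32, -0.26 and -0.30. GREM1, a BMP antagonist, was the ribosome-poor member, at 222, 218 and 242 CPM in total RNA and 69.3, 51.8 and 40.6 CPM on ribosomes (log2 ratio -2.10 ± 0.128 SE, adjusted p = 1.97e-12). None of its ribosome-bound values came near its RNA values.

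Long coiled-coil proteins of the centrosome, cilium and Golgi had the highest share of ribosome-rich members among the protein-coding lists with at least 10 members tested. Of 32 tested, 26 were higher on ribosomes and 3 lower, 23 were ribosome-rich and 3 ribosome-poor, and the median log2 ratio was 2.09. GOLGB1 (giantin), a Golgi tether, stood at 29.9, 32.3 and 32.9 CPM in total RNA and 395, 350.1 and 371 CPM on ribosomes (log2 ratio 3.55 ± 0.0941 SE, adjusted p = 1.07e-18). GOLGA4, a tether of the trans-Golgi, went from 26.6, 26.01 and 25.1 to 356, 299 and 282 CPM (log2 ratio 3.59 ± 0.101 SE, adjusted p = 3.14e-18). The kinetochore proteins CENPE and CENPF had log2 ratios of 3.44 and 3.08, and the centrosomal proteins AKAP9, CEP152 and NIN had 3.33, 3.08 and 3.04. CEP170 did not pass the test (-0.08) but was called lower with library totals alone (-0.45) and with a minimum of 10 CPM (-0.23). The members on the low side were GOLGA8A, GOLGA8B and CEP192. GOLGA8A and GOLGA8B belong to a family of near-identical genes, so their values are uncertain. GOLGA8A had 2 ribosome-bound counts in all, a level 132 times lower than in total RNA (95% interval 36.4 to 1087).

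The protein-coding genes with the highest ratios, among those with at least 10 CPM in total RNA, were TTC23, ROBO2, TPM2, SLIRP, DRAP1, NOP10, TMSB10, MDK, UBL5, SLTM, CWC15 and CCDC124. Several encode small proteins of basic cell machinery. NOP10 is part of the H/ACA snoRNA complex, CWC15 of the spliceosome, UBL5 is a ubiquitin-like splicing factor, SLIRP binds mitochondrial mRNA and TMSB10 binds actin monomers. TTC23 stood at 24.6, 23.1 and 23.2 CPM in total RNA and 14979, 8979 and 12134 CPM on ribosomes (log2 ratio 8.99 ± 0.1903 SE, adjusted p = 2.93e-20). It alone took 1.05% of ribosome-bound counts. ROBO2, a receptor of axon guidance, went from 13.9, 13.7 and 13.1 to 3516, 2433 and 1938 CPM (log2 ratio 7.60 ± 0.192 SE, adjusted p = 4.98e-19). TPM2, a tropomyosin, went from 43.2, 42.04 and 42.05 to 2734, 2136 and 2857 CPM, and SLIRP from 10.9, 11.3 and 12.98 to 517, 441 and 449 CPM. For NOP10 the values were 22.02, 20.4 and 17.99 and 473, 364 and 402 CPM, and for TMSB10 67.01, 64.9 and 63.1 and 1411, 1085 and 1364 CPM. In all 12 genes every ribosome-bound library lay above every RNA library, as the naming rule requires, and the ratios ran from 4.13 to 8.99. In the fit over all 12 libraries TTC23 and ROBO2 had log2 ratios of 8.79 and 7.23 in ESC and 8.96 and 7.57 in NPC. Position within the gene was not examined for them either, so which part of TTC23 or ROBO2 the counts cover is not known.

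A further 6 symbols of protein-coding genes had almost no total RNA, under 1 CPM, and at least 100 CPM on ribosomes. They were chosen after their values were seen. C12orf42 had 7 RNA counts in all and 8032, 4762 and 6573 CPM on ribosomes, ITIH3 had 8 RNA counts and 3421, 2148 and 2991 CPM, and RP1, a photoreceptor microtubule protein, had 2 RNA counts and 769, 500.1 and 843 CPM. KLHL31 had 17 RNA counts and IGFBP7 6. A small RNA gene lies within the span of C12orf42 and of IGFBP7 in RefSeq, and its part in the counts was not tested. SIGLEC12 had none, and at 3483, 3086 and 1206 CPM it was at least 87040.5-fold higher on ribosomes, taken against 3 counts over the RNA libraries. Position within the gene and the read sequences were not examined here, so it is not known which part of these genes the counts cover.

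By the fitted value, the lowest ratios among protein-coding genes with at least 10 CPM in total RNA belonged to TMA7, MGAT2, SFT2D3, RPL39, RPS3A, HIST1H4K, ZNF747, SHPK, UBE2F, NPIPA1, ZNF593 and HIST1H4J. Of these, 10 had 0 counts in all 3 ribosome-bound libraries, so only bounds exist for them, from at least 38.3-fold lower (HIST1H4J) to at least 96.2-fold lower (TMA7), and their rank rests on the fit. Genes outside the 12 were measured below those bounds, such as EEF1A1 (1058-fold lower), RPL7 (812-fold) and H3F3A (470.2-fold). TMA7, a small protein associated with ribosomes, stood at 27.02, 30.6 and 29.5 CPM in total RNA and was at least 96.2-fold lower, taken against 3 counts over the ribosome-bound group. MGAT2, an enzyme of N-glycan synthesis, stood at 28.2, 26.9 and 30.1 CPM and was at least 93.4-fold lower. Both RPL39 and RPS3A encode ribosomal proteins. RPS3A stood at 2661, 3166 and 2808 CPM in total RNA and 1.08, 0.941 and 0.766 CPM on ribosomes (log2 ratio -11.61 ± 0.197 SE, adjusted p = 1.25e-21), on 9 counts. RPL39 stood at 326, 376 and 353 CPM in total RNA and had 1 ribosome-bound count, a level 3497 times lower than in total RNA (95% interval 628 to 138142). These intervals are exact and cover counting error only.

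Of the 12 genes just named, 8 have no named pseudogene copy, but among all protein-coding genes those with more copies were more often ribosome-poor. Rows whose symbol is the gene's own symbol followed by P and a number, the usual form for processed pseudogenes, were counted as named copies. Similar genes under other symbols are not counted. HIST1H4K and HIST1H4J, among the 8, share sequence with other histone genes, so having no named copy does not mean a unique sequence. Among protein-coding genes without such a row, 11945 in all, 2496 (20.9%) were ribosome-poor and the median log2 ratio was 0.01. With 1 to 2 named copies (1012 genes) 26.1% were ribosome-poor, with 3 to 9 (389 genes) 40.6%, and with 10 or more (103 genes) 68.0%, with medians of -0.17, -0.61 and -1.86. The labels do not say how reads with several matches were counted, and the part of this in the ratios was not tested. A gene can also be low without named copies. TUBA1C and TUBA1A, alpha-tubulins whose coding sequences are very similar to other tubulin genes, stood at 606, 579 and 548 and 1035, 994 and 962 CPM in total RNA and at 3.97, 11.3 and 7.41 and 31.8, 48.6 and 41.9 CPM on ribosomes, with log2 ratios of -6.23 and -4.603. Their values are uncertain for the same reason.

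The genes of the translation machinery spread over a wide range. Starts of 10 of them are shown because they carry the same kind of tract while their ratios differ. The windows come from RefSeq (GRCh38.p14) and hold 10 bases before and 20 from the annotated start, 5′ to 3′ on the gene's strand, with the tract in capitals.
EEF2 (chr19:3985444-3985473, minus strand): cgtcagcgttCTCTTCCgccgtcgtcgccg
RPL28 (chr19:55385922-55385951, plus strand): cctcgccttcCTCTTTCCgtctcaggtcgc
RPL38 (chr17:74203668-74203697, plus strand): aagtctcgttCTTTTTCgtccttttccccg
RPL26 (chr17:8383174-8383203, minus strand): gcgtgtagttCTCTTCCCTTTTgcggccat
RACK1 (chr5:181243887-181243916, minus strand): gcttttctctCTCTCTTTCactgcaaggcg
TPT1 (chr13:45341164-45341193, minus strand): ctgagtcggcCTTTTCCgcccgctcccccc
RPL41 (chr12:56116623-56116652, plus strand): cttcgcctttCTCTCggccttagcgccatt
EEF1A1 (chr6:73521013-73521042, minus strand): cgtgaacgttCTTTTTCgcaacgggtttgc
RPL39 (chrX:119791611-119791640, minus strand): ccgccagcttCCCTCCTCTTCCTTTCTCCg
RPS3A (chr4:151099618-151099647, plus strand): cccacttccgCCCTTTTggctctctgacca
The tract was searched on the gene's strand as a C at the annotated start followed by at least 4 bases that are each C or T. It was found in 4.07% of 35116 promoters, in 26 of 42 large-subunit and 18 of 26 small-subunit ribosomal protein genes with a promoter in the table, and in 10 of 12 other known TOP genes. The annotated start need not be the start used in these cells, and a match is a description.

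EEF2, the elongation factor that moves the ribosome along, carries the tract and has no named copy. It stood at 3607, 3647 and 3360.4 CPM in total RNA and 11125, 9257 and 11544 CPM on ribosomes (log2 ratio 1.59 ± 0.109 SE, adjusted p = 1.5e-11). EEF1A1, the factor that delivers aminoacyl-tRNA, carries a tract of the same length and has 39 named copies. It stood at 14941, 15494 and 16175 CPM in total RNA and 12.996, 21.02 and 10.5 CPM on ribosomes (log2 ratio -10.05 ± 0.195 SE, adjusted p = 8.59e-21). The 2 elongation factors were thus on opposite sides, each without overlap between the assays. RPL28, with no named copy, was ribosome-rich, at 229, 219 and 198 against 1254, 1090.1 and 1345 CPM (log2 ratio 2.51 ± 0.104 SE, adjusted p = 2.34e-15), and so was RPL38, with 3, at 89.5, 89.8 and 87.1 against 941, 775 and 940.3 CPM. RACK1, a scaffold on the small subunit with no named copy, had a log2 ratio of 0.73. TPT1, with 14 copies, stood at 960.03, 1073 and 1088 CPM in total RNA and 298, 269.8 and 295 CPM on ribosomes (log2 ratio -1.86 ± 0.0969 SE, adjusted p = 1.27e-13). RPL41, with 3, had a log2 ratio of -3.25. Named copies and ratio did not always go together. RPL26 has 14 and was the highest of the large subunit, at 20.98, 19.5 and 20.7 against 240.1, 189 and 202 CPM (log2 ratio 3.36 ± 0.101 SE, adjusted p = 9.12e-18), and RPL31 has 30 and a log2 ratio of 1.91. RefSeq also places small RNA genes within the spans of RPL28 (2), RACK1 (2), TPT1 (2) and EEF2 (1), and their part was not tested. Over all protein-coding genes tested, 19.1% of the 1363 with such a gene inside were ribosome-rich, against 20.1% of the 12086 without.

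Over the whole large subunit, 51 genes were tested, 16 were higher on ribosomes and 33 lower, 12 ribosome-rich and 29 ribosome-poor, with a median of -2.10. Of 33 small-subunit genes 7 were higher and 26 lower, 5 ribosome-rich and 23 ribosome-poor, with a median of -1.73. RPL3, which takes part in forming the catalytic site, stood at 2081, 2165 and 2060.1 against 3331, 2913 and 3381 CPM (log2 ratio 0.61 ± 0.0986 SE, adjusted p = 9.21e-06). For 41 large-subunit genes with at least 3 named copies the median was -2.85, and for the 5 without any it was -0.17. In the small subunit these were -2.71 for 27 genes and 1.10 for the single gene without copies, RPS27L. Of 17 other TOP mRNAs tested, 4 were higher and 10 lower, with a median of -0.63. The 3 without copies, EEF2, RACK1 and EIF3H, were all higher on ribosomes. Among all protein-coding genes tested without named copies, 447 had a tract at the annotated start. Of them 17.7% were ribosome-rich and 23.5% ribosome-poor with a median of -0.06, against 20.3%, 20.9% and 0.01 for 8963 genes without a tract.

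**Figure D3:**
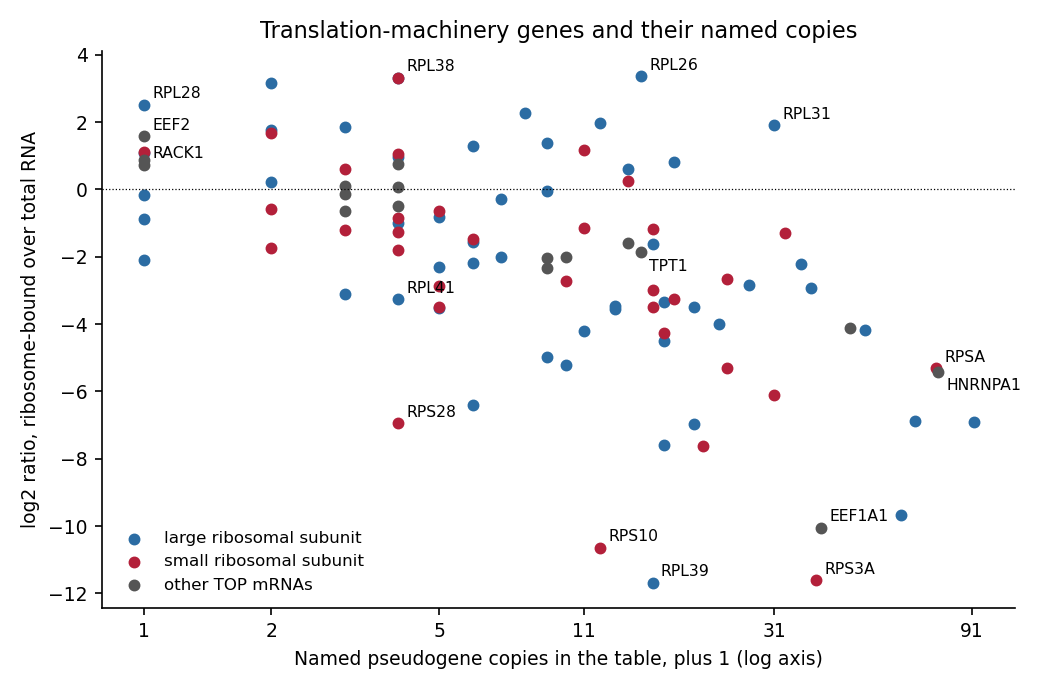
Log2 ratio of ribosome-bound to total RNA (y) against the number of named pseudogene copies plus 1 (x, log axis) for the ribosomal proteins of the large (blue) and small (red) subunit and other TOP mRNAs (grey). EEF2, RACK1 and RPL28, which have no named copy, lie above 0, EEF1A1 with 39 copies lies near -10, and RPL26 and RPL31 lie above 0 with many copies.

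Genes known for control of their translation lay on both sides, and among all genes tested 34.3% were higher and 41.5% lower. Upstream reading frames let ATF4 and its relatives be translated when initiation is limited under stress. Of 14 such genes 6 were higher on ribosomes and 6 lower, with 2 ribosome-rich and 4 ribosome-poor and a median of -0.28. ATF4 stood at 303, 306 and 302 CPM in total RNA and 591, 509 and 561 CPM on ribosomes (log2 ratio 0.87 ± 0.0902 SE, adjusted p = 1.51e-08), and PPP1R15A, which reverses the stress response, at 65.5, 62.7 and 60.4 and 96.4, 92.5 and 110.4 CPM (log2 ratio 0.67 ± 0.0929 SE, adjusted p = 1.13e-06). GADD45A, a growth arrest gene, was the highest, going from 45.5, 43.4 and 42.8 to 289, 280.1 and 261 CPM (log2 ratio 2.65 ± 0.0887 SE, adjusted p = 5.42e-17). ATF5, SLC35A4 and CEBPA were ribosome-poor, with log2 ratios of -1.10, -1.42 and -1.98, and TMEM183A was the lowest (-4.47). Counts are per gene, so ribosomes on an upstream frame and on the main frame are not separated.

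Iron-responsive elements in the 5′ leader hold back the ferritin mRNAs when iron is low, and those in the 3′ UTR protect TFRC. FTL, the ferritin light chain, stood at 798.9, 786 and 715 CPM in total RNA and 267, 217 and 267 CPM on ribosomes (log2 ratio -1.61 ± 0.102 SE, adjusted p = 3.37e-12). FTH1, the heavy chain, stood at 248, 227 and 228 and 192, 103 and 196 CPM (log2 ratio -0.52 ± 0.146 SE, adjusted p = 0.00305), a call lost in the fit over all 12 libraries (adjusted p = 0.0689). TFRC, the transferrin receptor, was higher on ribosomes, at 101, 99.9 and 110.1 against 161, 131 and 127 CPM (log2 ratio 0.43 ± 0.0969 SE, adjusted p = 4.66e-04), a call that scaling by library totals alone removed (0.05, adjusted p = 0.622), as did the fit over all 12 libraries (adjusted p = 0.119). FTL has 16 named copies and FTH1 has 25. Of the 8 genes of this list 2 were higher and 4 lower.

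In the polyamine pathway the breakdown enzyme and most enzymes of synthesis lay on opposite sides. SAT1, the acetyltransferase that starts polyamine breakdown, stood at 199.5, 199.8 and 199.4 CPM in total RNA and 2981, 2449 and 2589 CPM on ribosomes (log2 ratio 3.74 ± 0.109 SE, adjusted p = 4.77e-18). Of the enzymes of synthesis, AMD1, which makes decarboxylated S-adenosylmethionine, stood at 128, 134 and 145 against 25.6, 15.7 and 19.7 CPM (log2 ratio -2.75 ± 0.1299 SE, adjusted p = 2.16e-14). ODC1, which makes putrescine, stood at 262, 256 and 244 against 141, 113 and 118 CPM (log2 ratio -1.04 ± 0.0959 SE, adjusted p = 2.18e-09), and SMS, spermine synthase, had -1.92. SRM, spermidine synthase, was on the other side (1.14). The antizyme OAZ1, whose synthesis needs a frameshift, had -0.44, and the antizyme inhibitor AZIN1 -1.18. In the 10 genes tested 2 were higher and 5 lower.

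Selenoproteins read a UGA codon as selenocysteine. Of 21 tested 8 were higher and 8 lower, shares near those of all genes, with SELENOM (2.73) and DIO3 (1.90) highest and SELENOT (-2.42) and TXNRD1 (-1.70) lowest. Their median, 0.18, turned to -0.20 with scaling by library totals alone and to -0.07 without RIBO_NPC replicate 1. Of 14 genes of nonsense-mediated decay 5 were higher and 6 lower. The partners of the exon junction complex were on opposite sides. MAGOH stood at 5.83, 6.495 and 7.19 CPM in total RNA and 61.01, 80.6 and 74.6 CPM on ribosomes (log2 ratio 3.47 ± 0.125 SE, adjusted p = 2.07e-16), and RBM8A, which forms a dimer with it, at 97.1, 104 and 103 and 13.7, 15.1 and 13.3 CPM (log2 ratio -2.85 ± 0.1205 SE, adjusted p = 3.29e-15). UPF3B had a log2 ratio of 3.84.

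Splicing factors also lay on both sides. Of 28 SR protein and splicing kinase genes 18 were higher on ribosomes and 7 lower, with 13 ribosome-rich and 4 ribosome-poor and a median of 0.68. LUC7L3 went from 54.2, 47.8 and 48.7 to 617, 573 and 552 CPM (log2 ratio 3.53 ± 0.0978 SE, adjusted p = 2.18e-18), whereas SRSF1 fell from 129, 127 and 141 to 7.58, 2.51 and 2.04 CPM (log2 ratio -5.13 ± 0.202 SE, adjusted p = 9.71e-16). SRSF6 had a log2 ratio of -3.18 and SRSF11 of 2.27. Among 48 chromatin remodelers and lysine methyltransferases 29 were higher and 12 lower, with EZH2, the catalytic subunit of Polycomb complex 2, at 46.2, 45.9 and 48.5 against 461, 413 and 414 CPM (log2 ratio 3.20 ± 0.0919 SE, adjusted p = 4.17e-18) and CHD4, a remodeler of the NuRD complex, at 26.8, 31.3 and 29.3 against 6.498, 6.902 and 4.34 CPM (log2 ratio -2.33 ± 0.183 SE, adjusted p = 1.43e-10). Among 33 initiation factors 13 were higher and 15 lower, with a median of -0.06 that was 0.20 over the 20 members without named copies. EIF3A, the largest subunit of eIF3, went from 175, 183 and 196 to 2415, 2193 and 2211 CPM (log2 ratio 3.62 ± 0.104 SE, adjusted p = 4.05e-18), and EIF4EBP2, which represses cap-dependent initiation, fell from 515, 528 and 537 to 57.4, 52.4 and 47.8 CPM (log2 ratio -3.33 ± 0.104 SE, adjusted p = 1.76e-17).

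Shares of members in the lists that follow are to be read against the 34.3% higher and 41.5% lower among all genes tested. Of the genes often used as references, ACTB stood at 4547, 4309 and 3939 CPM in total RNA and 4413, 4159.8 and 4605 CPM on ribosomes (log2 ratio 0.04 ± 0.1004 SE, adjusted p = 0.709), and scaling by library totals alone called it lower (-0.33, adjusted p = 0.00355). GAPDH, with 62 named copies, had a log2 ratio of -1.96, and in glycolysis the lactate dehydrogenase subunits LDHA and LDHB, with 6 and 3 copies, had -2.26 and 3.52. Among 29 hnRNP genes, which package and splice nuclear RNA, 13 were higher and 12 lower. HNRNPM, with 2 named copies, was at 2.54 and HNRNPA3, with 16, at -5.32. Of the 14 hnRNP genes without a named copy 8 were higher and 4 lower, with a median of 0.41. Proteasome subunits had 17 of 37 higher and 13 lower. PSMB1 and PSMC6 had log2 ratios of 2.19 and 2.14. PSMC1, with 13 named copies, had 2 ribosome-bound counts, a level 288 times lower than in total RNA (95% interval 79.7 to 2379.7). Chaperones had 16 of 35 higher and 16 lower, from HSPE1 (-2.64, with 26 named copies) to PFDN2 (4.57, with none). Their median was -0.05. Over the 22 members without a named copy it was 0.77, with 13 higher and 7 lower. Aminoacyl-tRNA synthetases had 11 of 23 higher and 7 lower, among them NARS (1.56) and TARS (1.63) on the high side. Cell cycle and replication genes had 13 of 35 higher and 8 lower, with CDKN1C, an inhibitor of cyclin-dependent kinases, at 2.25 and TYMS, thymidylate synthase, at -1.32. Immediate early and other short-lived regulators had 13 of 37 higher, a share near that of all genes, and 19 lower, with a median of -0.45 that was 0.13 over members without named copies. CCND2, the cyclin D2 gene, fell from 652, 668 and 684 to 59.9, 62.4 and 54.7 CPM (log2 ratio -3.50 ± 0.104 SE, adjusted p = 6.68e-18), and ID2, a negative regulator of bHLH factors, went from 31.2, 34.4 and 31.7 to 169, 178 and 163 CPM (log2 ratio 2.39 ± 0.0896 SE, adjusted p = 4.14e-16).

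Adhesion genes and factors of the neural crest had more members on the high side. Of 30 integrin and cadherin genes 18 were higher and 9 lower, with a median of 0.43. FAT3, a giant cadherin of developing neurons, was the lowest, at 201, 197 and 220.05 against 52.7, 47.997 and 47.8 CPM (log2 ratio -2.06 ± 0.0998 SE, adjusted p = 3.42e-14), and PCDH9, a protocadherin, the highest (1.34). Of 16 neural crest and dorsal neural tube factors 9 were higher and 2 lower, with a median of 0.50. DLX5, a homeobox factor of the neural plate border, went from 8.13, 8.43 and 7.35 to 36.8, 39.2 and 44.96 CPM (log2 ratio 2.35 ± 0.1296 SE, adjusted p = 3.3e-13), and ETS1 fell from 8.03, 8.51 and 9.54 to 3.25, 4.71 and 1.79 CPM (log2 ratio -1.47 ± 0.275 SE, adjusted p = 5.75e-05). Cholesterol synthesis genes had 9 of 23 higher and 10 lower, with MVK, mevalonate kinase, on the high side at 1.62.

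**Figure D4:**
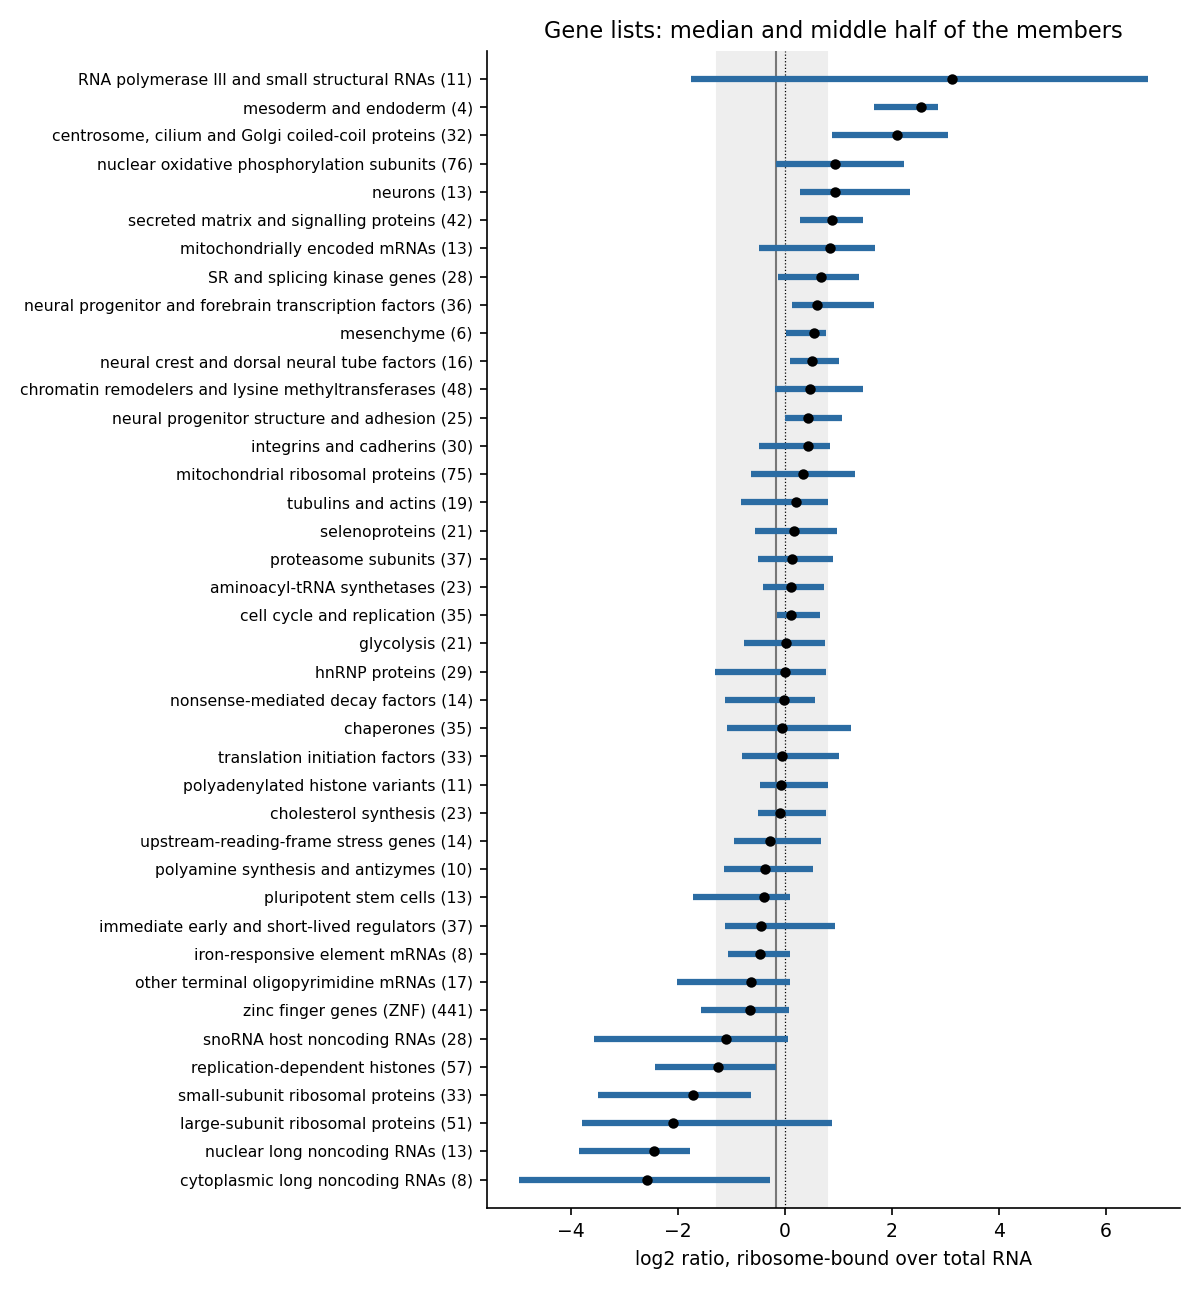
Median (dot) and middle 50% (bar) of the log2 ratio of ribosome-bound to total RNA in NPC for each gene list, with the number of members tested in brackets; the grey line and band give the same for all 16777 genes tested and the dotted line marks 0. The coiled-coil, secreted and neural transcription factor lists lie above the line of all genes. The lists of cytosolic ribosomal proteins, replication-dependent histones and lncRNAs lie below it.

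The mRNAs of the mitochondrial genome were on both sides. The mitochondrial genome encodes 13 mRNAs of the respiratory chain, which are translated by ribosomes inside the organelle. Of these, 8 were higher on ribosomes and 4 lower. MT-CO1, a subunit of cytochrome oxidase, stood at 4875, 3731 and 4313 CPM in total RNA and 668, 352 and 485 CPM on ribosomes (log2 ratio -3.10 ± 0.167 SE, adjusted p = 2.2e-13). MT-CYB, the cytochrome of complex III, stood at 296, 202 and 273 and 2627, 1269.9 and 2149.8 CPM (log2 ratio 2.97 ± 0.187 SE, adjusted p = 3.4e-12), and MT-ND5, a complex I subunit, at 276, 204 and 245 and 1852, 1160.1 and 1434 CPM (log2 ratio 2.62 ± 0.142 SE, adjusted p = 2.39e-13). MT-ND2, another complex I subunit, was low (-2.04). The labels do not say how reads that also match similar sequences elsewhere were counted. Named copies were found by the gene's own symbol, so copies of these genes under other symbols would be missed. The part of this in the split was not tested. The second library of each assay was the lowest for MT-CO1, MT-CYB and MT-ND5. Of 76 nuclear genes for respiratory chain subunits 47 were higher on ribosomes and 17 lower, with 37 ribosome-rich and 9 ribosome-poor and a median of 0.94. NDUFB6 went from 7.79, 7.905 and 9.13 to 158, 158 and 153 CPM (log2 ratio 4.24 ± 0.1004 SE, adjusted p = 1.74e-19), and NDUFC2 fell from 27.7, 29.2 and 29.7 to 2.89, 0.627 and 0.766 CPM (log2 ratio -4.45 ± 0.273 SE, adjusted p = 2.09e-12), although both are small membrane subunits of complex I. Of 75 mitochondrial ribosomal protein genes 40 were higher and 25 lower, with a median of 0.34 that turned to -0.03 with scaling by library totals alone.

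Replication-dependent histone mRNAs, which end in a stem-loop instead of a poly(A) tail, were mostly low on ribosomes. Of 68 listed 57 were tested, 9 were higher and 41 lower, 5 ribosome-rich and 32 ribosome-poor, with a median of -1.26. HIST1H4K and HIST1H4J, core H4 genes, had no ribosome-bound count. HIST1H1E, a linker histone, was ribosome-rich, from 77.8, 84.6 and 77.1 to 443, 445 and 527 CPM (log2 ratio 2.56 ± 0.0966 SE, adjusted p = 4.48e-16), and another linker histone, HIST1H1B, was ribosome-poor, from 228, 267 and 223 to 40.4, 43.9 and 47.3 CPM (log2 ratio -2.44 ± 0.109 SE, adjusted p = 8.92e-15). Histone genes share long stretches of coding sequence, so the split between members is uncertain. H3F3A, a variant histone with 6 named copies, had a log2 ratio of -8.88 on 5 ribosome-bound counts, and H1F0, a linker variant without copies, had 1.03.

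More lncRNAs were ribosome-poor than ribosome-rich, at 56.1% and 10.4% of the 722 tested. Rows at low levels could pass the filter through the deeper total RNA alone, so these shares may depend on depth. Of 13 nuclear lncRNAs tested 12 were lower on ribosomes and 1 higher, with 11 ribosome-poor and a median of -2.45. NEAT1, the scaffold of paraspeckles, stood at 402, 421 and 429.6 CPM in total RNA and 17.3, 15.4 and 18.1 CPM on ribosomes (log2 ratio -4.62 ± 0.117 SE, adjusted p = 5.4e-19). MALAT1, a nuclear speckle RNA, was lower by much less, at 6040.4, 5976 and 6795 and 4014, 3646 and 3234 CPM (log2 ratio -0.79 ± 0.107 SE, adjusted p = 8.69e-07). MEG3 was the member on the high side, at 6.41, 5.24 and 4.903 against 12.6, 9.41 and 15.8 CPM (log2 ratio 1.22 ± 0.206 SE, adjusted p = 1.57e-05). Of 8 lncRNAs listed as cytoplasmic and tested, 6 were lower and 1 higher, with 5 ribosome-poor and a median of -2.57. The higher one was MIR302CHG, the host of microRNA genes, whose place in the cell was not measured here. Its call was lost without RIBO_NPC replicate 1 (adjusted p = 0.0605) or with library totals alone (adjusted p = 0.175). The difference of this list from the nuclear one was not tested. NORAD, which binds Pumilio proteins, stood at 282, 273 and 301 CPM in total RNA and 4.69, 1.88 and 4.598 CPM on ribosomes (log2 ratio -6.25 ± 0.168 SE, adjusted p = 1.28e-18). OIP5-AS1, also called cyrano, stood at 131, 138 and 149 and 2.89, 0.941 and 2.299 CPM (log2 ratio -6.10 ± 0.1902 SE, adjusted p = 1.68e-17). H19 was at or under the floor in both assays and gets no ratio.

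Host transcripts of snoRNAs ranged widely. Of 28 tested 7 were higher and 19 lower, with 6 ribosome-rich and 16 ribosome-poor. GAS5 stood at 316, 329.8 and 319 CPM in total RNA and 8452, 9118 and 7209 CPM on ribosomes (log2 ratio 4.68 ± 0.122 SE, adjusted p = 8.06e-19), and SNHG1 at 187, 185 and 190.5 and 4067, 6578 and 5544 CPM (log2 ratio 4.85 ± 0.1503 SE, adjusted p = 1.56e-17). SNHG3, by contrast, stood at 131, 127 and 120.2 and 0.722, 1.25 and 4.34 CPM (log2 ratio -5.76 ± 0.214 SE, adjusted p = 3.48e-16), and SNHG16 at 315, 328 and 302 and 6.498, 5.33 and 8.43 CPM (log2 ratio -5.52 ± 0.141 SE, adjusted p = 6.15e-19). The spliced transcripts of both high hosts are known to associate with ribosomes. Small RNA genes lie within the spans of these hosts in RefSeq, 11 in GAS5, 9 in SNHG1, 3 in SNHG16 and 2 in SNHG3, and their part in the host counts was not tested. Over all lncRNAs, 13.3% of the 83 with a small RNA gene in their span were ribosome-rich, and 61.4% ribosome-poor, with a median of -1.45. Of the 639 without, 64 were ribosome-rich and 55.4% ribosome-poor, with a median of -1.40. Among all lncRNAs with at least 10 CPM in the higher assay, LINC00294, LINC00641, NORAD, OIP5-AS1, NUTM2B-AS1 and SNHG3 had the lowest ratios. LINC00294 stood at 19.4, 21.9 and 22.7 CPM in total RNA and had 1 ribosome-bound count, a level 212 times lower than in total RNA (95% interval 37.96 to 8367). By the fitted value, TLR8-AS1, LINC01017, RERE-AS1, RNF139-AS1, SNHG25 and SMARCA5-AS1 had the highest ratios. All of these except RNF139-AS1 passed the filter through ribosome-bound RNA. Their counts over all of total RNA were 1 (TLR8-AS1), 0 (LINC01017), 7 (RERE-AS1), 31 (SNHG25) and 24 (SMARCA5-AS1). For LINC01017 only a bound exists, at least 543-fold higher, so its rank rests on the fit. RNF139-AS1 stood at 2.33, 2.11 and 2.83 CPM in total RNA and 1399.9, 871 and 815 CPM on ribosomes (log2 ratio 8.72 ± 0.2101 SE, adjusted p = 2.29e-19). The labels do not say whether counting used strand, so reads of an antisense gene and its partner cannot be told apart.

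Small structural RNAs took large shares of the ribosome-bound counts, with RNY1 at 2.08%, RNU1-67P at 2.06% and RMRP at 1.97%. RNY1, a Y RNA of the Ro particle, stood at 0.809, 1.33 and 0.943 CPM in total RNA and 29929.7, 23185 and 18173 CPM on ribosomes (log2 ratio 14.46 ± 0.254 SE, adjusted p = 1.93e-21). RMRP, the RNA of the RNase MRP, was abundant in both, at 3096, 3612 and 3444 and 27341, 15182 and 25213 CPM (log2 ratio 2.74 ± 0.162 SE, adjusted p = 1.09e-12). RN7SL1, the RNA of the signal recognition particle, went the opposite way, from 4979, 5757 and 5545 to 4.69, 1.88 and 1.79 CPM (log2 ratio -11.00 ± 0.202 SE, adjusted p = 3.71e-21). The pseudogene row RNU1-67P had no count in total RNA and 21127, 25315 and 23715 CPM on ribosomes, while RNU1-1, a functional U1 gene, had 6.44, 6.87 and 7.2999 CPM in total RNA and no ribosome-bound count. SNORD48, a box C/D snoRNA, had no count in total RNA and 3292, 5471 and 3327 CPM on ribosomes. RNU1-20P, RNA5SP215, RNA5SP174 and RNA5SP207, U1 and 5S ribosomal RNA pseudogenes, also had no count in total RNA, so only bounds exist for them and they cannot be ranked. RNA5SP136, with 1 RNA count, was 407911 times higher on ribosomes (95% interval from 73208). U1, 5S and 7SL RNAs have many near-identical rows, so the split among them is uncertain. Small RNA rows that passed the filter often did so through ribosome-bound RNA alone, so counts of called rows are no support for a difference of the class. The labels do not give the fragment sizes of either assay. At the other end, RPS2P5, H3F3AP4, GTF2IP1, GUSBP3, PPIAP22 and NSUN5P2, all pseudogenes, had no ribosome-bound count. RPS2P5 stood at 290.4, 316 and 269.8 CPM in total RNA, at least 963-fold lower on ribosomes.

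Of 1855 rows of microRNA genes 105 passed the filter, and the most abundant on ribosomes was MIR302A. It stood at 1.15, 1.51 and 0.997 CPM in total RNA and 12359.8, 6738 and 12284 CPM on ribosomes (log2 ratio 13.05 ± 0.276 SE, adjusted p = 2.93e-20). MIR302B, from the same cluster, stood at 2.9005, 3.097 and 2.96 and 927, 639 and 679.7 CPM, and MIR302C at 1.11, 0.378 and 0.943 and 812, 448 and 699 CPM. All 3 lay higher on ribosomes in every library. This cluster, on the minus strand of chromosome 4, is known from pluripotent cells. Its host lncRNA, MIR302CHG, stood at 13.2, 12.6 and 13.4 and 27.1, 21.6 and 13.54 CPM (log2 ratio 0.63 ± 0.174 SE, adjusted p = 0.00264), a call lost without RIBO_NPC replicate 1 (adjusted p = 0.0605) or with library totals alone (adjusted p = 0.175). MIR93 and MIR106B, from a cluster on chromosome 7, were at 148, 90.7 and 111 and 102, 70.3 and 110.1 CPM on ribosomes, with 12 and 18 counts in all of total RNA. MIR183 had no count in total RNA and 1641, 831 and 1118 CPM on ribosomes, at least 41609-fold higher. Other rows above these, MIR3609, MIR532, MIR1246, MIR99A and MIR27B, had means of 1118, 257, 242, 135 and 132 CPM on ribosomes. Mature sequences from RefSeq (GRCh38.p14) are shown for the miR-302 members, for miR-183 as the next most abundant row, and for miR-93 and miR-106b because their seed overlaps that of miR-302, with the seed, bases 2 to 8, in capitals.
hsa-miR-302a-3p (chr4:112648186-112648208, minus strand): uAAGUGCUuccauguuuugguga
hsa-miR-302c-3p (chr4:112648366-112648388, minus strand): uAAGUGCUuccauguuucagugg
hsa-miR-302b-3p (chr4:112648489-112648511, minus strand): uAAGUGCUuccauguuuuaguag
hsa-miR-93-5p (chr7:100093815-100093837, minus strand): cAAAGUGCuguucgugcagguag
hsa-miR-106b-5p (chr7:100094043-100094063, minus strand): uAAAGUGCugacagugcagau
hsa-miR-183-5p (chr7:129774967-129774988, minus strand): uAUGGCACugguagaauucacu
The 3 members of the miR-302 family share the seed AAGUGCU, and miR-93 and miR-106b share AAAGUGC, whose last 6 bases are the first 6 of the miR-302 seed. Counts are per microRNA gene, so the arm that was counted is not known.

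The same ratio was measured in the parent stem cells. In ESC, RNA replicate 3 and ribosome-bound replicate 2 stood apart from their groups (r = 0.976 to 0.980 and 0.956 to 0.964, against 0.997 and 0.982 for the other pairs), so results are given with and without them. Across 17708 genes, which share libraries and are not independent, the log2 ratios in NPC and ESC correlated at r = 0.845. The interaction of assay and state was called for 2981 genes (16.8%) with a higher ratio in NPC and 2148 (12.1%) with a lower one. Without RNA_ESC replicate 3 these were 3243 and 2901, and without RIBO_ESC replicate 2 they were 3079 and 2227. The coiled-coil list had the ratio higher in NPC for 27 of 32 genes, with medians of 0.17 in ESC and 2.06 in NPC; the count was 27 without either of these libraries. Mitochondrially encoded mRNAs had it higher for 12 of 13, with medians of -1.55 and 0.81 (12 and 13 of 13 without the 2 libraries in turn). Chromatin remodelers had 33 of 48 higher and 1 lower, with medians of -1.005 and 0.45 (33 and 32 higher without them). Replication-dependent histones had 54 of 58 lower, with medians of 1.80 and -1.27 (54 without either). Nuclear respiratory chain genes had 48 of 76 lower and 4 higher, with medians of 2.01 and 0.91 (53 and 43 lower without them), and mitochondrial ribosomal proteins 52 of 75 lower (61 and 46). Ribosomal proteins were lower in NPC for 26 of 51 in the large subunit and 19 of 33 in the small one, and higher for 7 and 1. Without the 2 libraries in turn, 27 and 25 large-subunit genes and 20 and 19 small-subunit genes were lower.

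**Figure D5:**
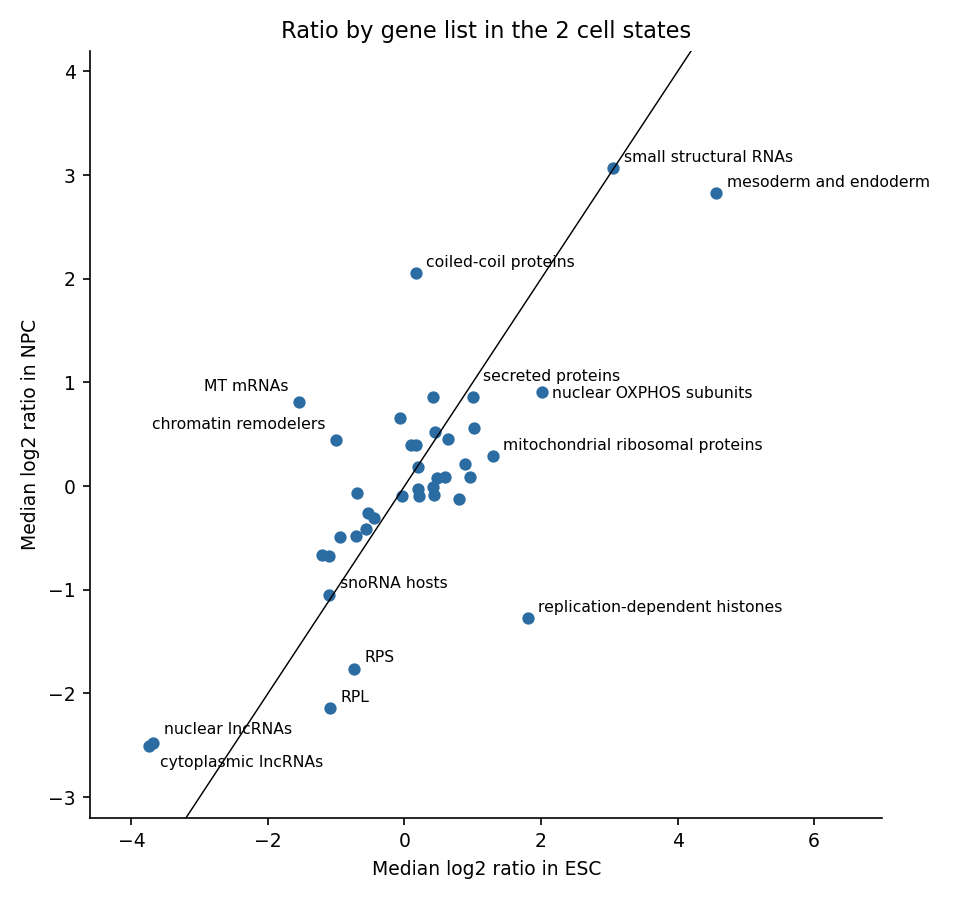
Median log2 ratio of ribosome-bound to total RNA of each gene list in ESC (x) and in NPC (y), from the fit over all 12 libraries, with a line at equality. Replication-dependent histones lie far below the line (1.80 in ESC, -1.27 in NPC), and coiled-coil proteins (0.17 and 2.06) and mitochondrially encoded (MT) mRNAs (-1.55 and 0.81) above it.

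Among 29 genes to be named in any case that had a test, the ratio was higher in NPC for 9, lower for 5 and not called for 15. Over all genes with this test 16.8% were higher and 12.1% lower. Without RNA_ESC replicate 3 these counts were 9, 7 and 13, and without RIBO_ESC replicate 2 they were 10, 7 and 12. LIN28A was called lower in NPC without either (adjusted p = 0.0312 and 0.0146), AZIN1 lower and FTL higher without the first (adjusted p = 0.00631 and 0.00113), and GAPDH lower and MT-CO1 higher without the second (adjusted p = 0.0310 and 0.00124). For SOX2 no difference was called, with log2 ratios of 1.02 in ESC and 1.04 in NPC (difference 0.02 ± 0.217 SE, adjusted p = 1). GAS5 had 4.75 and 4.65 (difference -0.10 ± 0.321 SE, adjusted p = 0.888), TPT1 -1.90 and -1.89, and RPL41 -3.31 and -3.28, none of them called. ATF4 went from -0.48 in ESC to 0.83 in NPC (1.32 ± 0.224 SE, adjusted p = 2.62e-04), and PPP1R15A from -1.24 to 0.63 (1.87 ± 0.292 SE, adjusted p = 1.17e-04). RPL3 changed side, from -1.54 to 0.58 (2.12 ± 0.258 SE, adjusted p = 1.1e-05). OTX2 went from 2.84 to 0.26 (-2.57 ± 0.235 SE, adjusted p = 8.91e-07) while its mean level in total RNA was 7.78 CPM in ESC and 82.1 CPM in NPC. PAX6 had the same direction (-2.84 ± 0.443 SE, adjusted p = 1.19e-04), from 0.632 CPM of total RNA in ESC, where its ribosome-bound mean was 3.44 CPM. NEAT1 had a mean of 46.2 CPM in total RNA of ESC and 0.1001 CPM on ribosomes there, under the level of 3 counts in a library, so the fitted size of its difference is uncertain.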

How the data were processed

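The deposited table holds gene counts by the authors for 59050 gene symbols in 12 libraries, whole numbers with no normalization. Per the submitters' processing notes, STAR 2.7.1a, featureCounts 1.6.4, Bowtie 1.2 and cutadapt 1.18 were used with the genome build hg38, in roles that are not stated. Strand settings and the handling of reads with several matches are not stated either. Both decide how counts are split among genes with similar or overlapping sequence.

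The 3 RIBO_NPC and 3 RNA_NPC libraries were compared with edgeR 4.0.16 in R 4.3.3 (TMM scaling, filterByExpr, quasi-likelihood test, Benjamini-Hochberg adjustment, threshold 0.05). The ratio in NPC was set against that in ESC as an interaction over all 12 libraries. Levels are CPM, counts per 1000000 of the TMM-scaled library size. The SE of a log2 ratio was derived from the test, as its absolute value divided by the square root of the F statistic. The tests were checked on simulated data with few genes changed, equally up and down. That check does not cover a difference in composition between the assays as large as in these data. Of the symbols, 36273 matched a RefSeq symbol and 1009 a synonym, which gave gene classes. Nothing says whether the replicate numbers pair the libraries of the assays, and the main fit has no replicate block. Same-numbered libraries correlated at r = -0.0915 to -0.00872 after removal of group means, and other pairs at -0.0469 to 0.0624. Counting error could hide a shared part, so this check cannot exclude pairing.

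The genes compared and the 40 lists were chosen with earlier results of these data known. The text names the 12 highest and 12 lowest protein-coding genes without overlap between assays and with at least 10 CPM of total RNA, the 6 highest and lowest lncRNAs and other noncoding or pseudogene rows, the 2 highest and lowest of each list (not all of these are printed), and 30 genes to be named in any case. A few named by the rule are not reported here. Other genes named were chosen after their values were seen. A fold against a group with no count was taken against 3 counts over that group, and intervals (95%, exact) and floors cover counting error only. Alternatives tried were other scalings, filters and tools, thinning, a replicate block and leaving out each library.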

Additional observations from a re-analysis of the deposited data

Results flagged for a closer look

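Of the 29 genes to be named in any case that had a test, 14 had a RIBO to RNA ratio that differed between NPC and ESC. The test was of the interaction itself (edgeR, adjusted over 17708 genes). Over all 17708 genes the ratio was called higher in NPC for 16.8% and lower for 12.1%. The log2 ratio in NPC minus that in ESC was -2.84 for PAX6, -1.87 for SOX1, -2.57 for OTX2, -0.77 for VIM and -1.18 for EEF1A1. It was 1.32 for ATF4, 1.87 for PPP1R15A, 1.19 for FTH1, 1.13 for EEF2, 0.92 for PABPC1, 2.12 for RPL3, 1.43 for MALAT1, 3.84 for NEAT1 and 1.63 for NORAD. For NEAT1 the ribosome-bound mean in ESC was 0.1001 CPM, under the level of 3 counts in a library, so its size depends on the fit. In ESC total RNA, PAX6 had a mean of 0.632 CPM and SOX1 of 2.63 CPM.

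The calls for VIM, FTH1, EEF1A1, PABPC1 and NORAD were lost when single libraries were left out, which happened for 6, 8, 2, 10 and 4 of the 12 libraries in this order (for PABPC1 also for RNA_ESC replicate 3, which stood apart, with adjusted p = 0.0596). Adjusted p reached 0.118 for VIM without RIBO_NPC replicate 1, 0.0662 for FTH1 without RIBO_NPC replicate 3, 0.0613 for EEF1A1 without RIBO_NPC replicate 3, 0.0907 for PABPC1 without RIBO_NPC replicate 2 and 0.124 for NORAD without RIBO_ESC replicate 3. The other 9 calls held without each of the 12 libraries in turn.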

How the results depend on the processing

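A minimum mean of 10 CPM in each assay left 3151 genes higher, 3373 lower, 1385 ribosome-rich and 1495 ribosome-poor, because fewer genes were tested. A fold of 4 in place of 2 left 1483 and 2691. Protein-coding genes alone gave 3129 ribosome-poor genes. Thinning total RNA to the ribosome-bound depth gave 4890 higher, 5076 lower, 2884 ribosome-rich and 3228 ribosome-poor genes. At that depth 6065 of the 8241 genes past 2-fold in the main fit were still tested, and 6049 kept direction and call. Leaving out each library in turn gave 5078 to 5665 higher, 5627 to 7458 lower, 3063 to 3509 ribosome-rich and 3676 to 5372 ribosome-poor genes, and for the comparison with ESC 2456 to 3243 higher and 1542 to 2901 lower. The replicate block gave 5456 higher and 6695 lower, and 2808 and 2101 against ESC. It ended the call for VIM against ESC (adjusted p = 0.0527). Of the 8241 genes past 2-fold, 8141 kept direction and call in DESeq2, 8227 in limma-voom and 8139 under library totals alone. Under that scaling the ratio of OTX2 reversed to -0.0667 (adjusted p = 0.543), and the medians of mitochondrial ribosomal proteins, selenoproteins, glycolysis, proteasome subunits, aminoacyl-tRNA synthetases, hnRNP proteins, cell cycle genes, and tubulins and actins changed sign. The cause was not tested. Depth limits ribosome-bound values: 3 counts are 0.766 to 1.08 CPM there. A ratio by protein length was not run, since no protein table was used here.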
